A study of Arabidopsis thaliana with 12 samples.

Results

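The genes described here are those whose own probe lay at or near the floor of the array, which the deposited values list as exactly 0. A gene was taken when its probe named that gene alone and its value was above 0 in fewer than 4 of the 6 WT columns or in fewer than 4 of the 6 prors1 columns. This gave 110 of the 691 genes with a probe of their own, or 15.9% of the 692 such probes. Over all 3439 probes the same rule took 15.4%. The genes AT3G49740, AT4G01310 and AT4G02580 were set aside by name, and 0 of them met the rule. The genes were chosen by these deposited values in both groups, so the counts and levels below are a description, with no test.

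The series compared total RNA of Arabidopsis thaliana, ecotype Columbia 0, between plants titled WT and plants titled prors1, all adapted to darkness overnight. The prors1 mutant is labelled as lacking prolyl-tRNA synthetase. Grouping followed the sample titles, 6 columns each, because the source field reads WT for all 12 samples. The labels name no tissue, age or allele and do not say that columns come from separate plants. In both groups the columns resembled each other most in the pairs 1 with 2, 3 with 4 and 5 with 6. Each pair is called an array below, a reading of the values that the labels do not state, which leaves 3 arrays per group.

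Prolyl-tRNA synthetase attaches proline to its transfer RNA, and the enzyme encoded by PRORS1 serves protein synthesis in plastids and mitochondria. Most proteins of both organelles are encoded in the nucleus, and disturbed organelle translation is known to alter the transcript levels of nuclear genes for plastid proteins. Genes of restricted use, such as regulators of flower or seed development, typically give little signal in RNA from other organs, whereas genes for photosynthetic carbon fixation or for the proteasome are widely used.

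The genes at the floor included ones that leaves or all cells are known to use. SBPASE, the sedoheptulose-bisphosphatase of the Calvin-Benson cycle, was above 0 in 1 of 12 columns, a WT column at 0.0128. AT5G23540, the proteasome lid subunit RPN11, was above 0 in 1 WT column at 0.0185, and AT5G47030, the delta subunit of mitochondrial ATP synthase, in 1 WT column at 0.0248. The probe of AT5G23540 has a number divisible by 6, a kind of position described below. These 3 genes were picked for their known roles after their values were seen. A gene is called here listed at 0 and not silent, because whether a 0 means an absent transcript was not tested.

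Membership followed the number of the probe on the array. Of the 261 probes whose number is divisible by 6, 88.1% met the rule, against 9.47% of the other 3178 probes. Among probes naming 1 gene the rule took 44 of the 51 with such a number (86.3%), and 4.58% to 17.5% of those at each of the other 5 remainders. The 31 probes of this kind that did not meet the rule all had numbers between 2310 and 2820, so outside that stretch all 217 probes met it, 41 of them the probe of a gene described here. A shorter run of 22 consecutive probes with remainder 5, numbers 2123 to 2273, also met the rule throughout and held 5 genes. Both stretches were found after the data were seen, and their ends were set by the values. What lay at these positions is not given in the sources used here, and the part of position in the values was not tested. Outside both stretches lay 64 of the 110 genes, of which 49 were low in both groups.

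**Figure D1:**
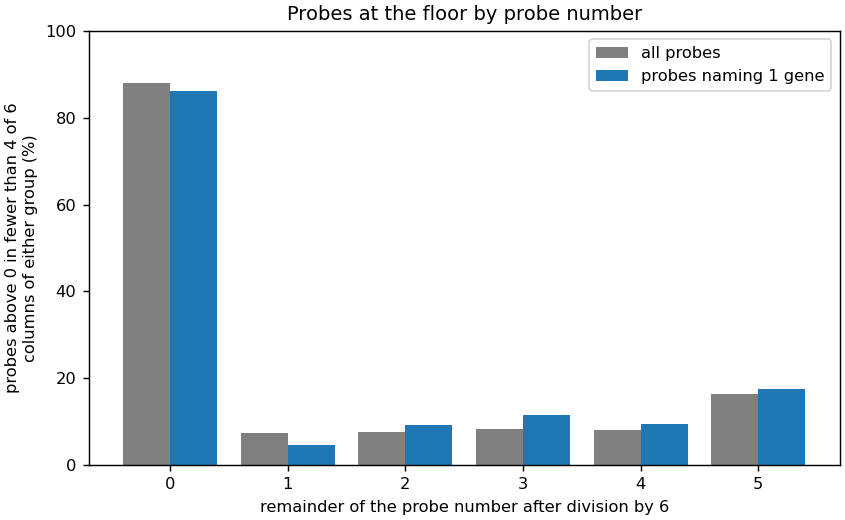
The bars give the percentage of probes above 0 in fewer than 4 of 6 columns of either group, by the remainder of the probe number after division by 6, for all probes (grey) and for probes naming 1 gene (blue). At remainder 0 the bars stand at 88.1% and 86.3%, and at every other remainder they stay at or below 17.5%.

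Most of the 110 genes were low in both groups, meaning above 0 in fewer than 4 of 6 columns of each. There were 95 of these, 13.7% of the 692 probes naming 1 gene (446 of all 3439 probes, 13.0%, were low in both). A further 12 genes, 1.73% of those 692 probes, were low in WT alone (1.98% of all probes). Low in prors1 alone were 3 genes, 0.434% of the 692 (0.494% of all probes). Across all probes 68 were low in WT alone and 17 in prors1 alone, so the excess of genes seen in prors1 only was shared by the whole array. The median of the values above 0 was also higher in every prors1 column (0.407 to 0.520) than in every WT column (0.224 to 0.289). In RNA from whole tissue, fewer cells of a type and less RNA per cell cannot be told apart.

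**Figure D2:**
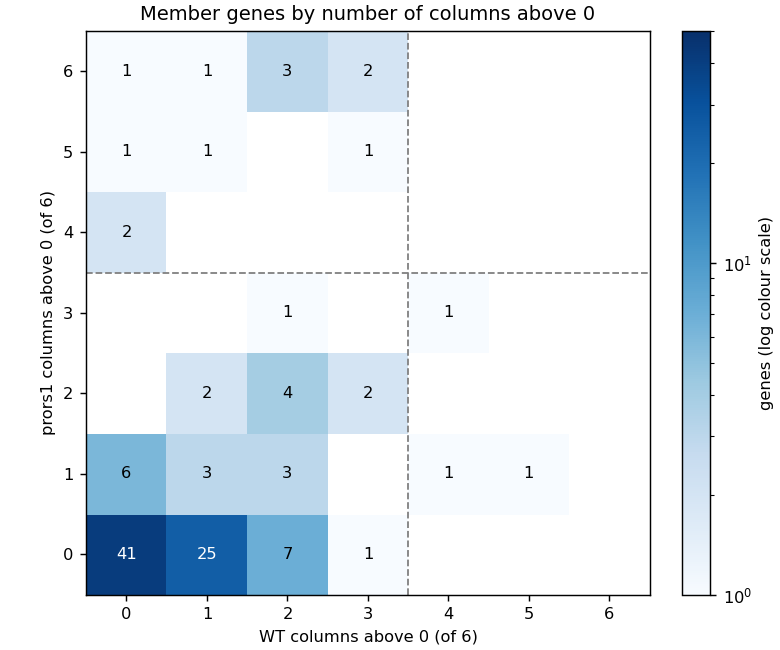
Each square counts the genes with a given number of WT columns (horizontal axis) and prors1 columns (vertical axis) above 0, on a log colour scale. Dashed lines mark the limit of the rule. The largest square holds the 41 genes at 0 in all 12 columns, and the upper left field the 12 genes low in WT alone.

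A value of 0 in all 12 columns was found for 41 of the 110 genes. These were 5.92% of the 692 probes naming 1 gene, near the 5.96% of all probes. Of the 41, 18 had a probe number divisible by 6, and 22 lay outside both stretches. Organelle gene expression was represented by 3 pentatricopeptide repeat (PPR) protein genes, AT3G22690, AT4G14050 and AT5G02830, of the family that edits and processes organelle RNA. It was also represented by AT1G64510, the plastid ribosomal protein S6, and AT1G18440, of the peptidyl-tRNA hydrolase family, which frees stalled peptides from their transfer RNA. SPPA, a thylakoid protease, and AT5G55220, a chaperone of the trigger factor type, stood for plastid protein handling. CKS makes the activated form of KDO, a sugar of pectin, and APTX is related to aprataxin, a DNA repair protein. AT1G19490 encodes a bZIP transcription factor, AT1G53050 a protein kinase, AT4G14330 a kinesin and AT5G59250 a sugar transporter family protein. Of these genes with a role, AT1G18440, AT1G19490, AT1G53050, AT1G64510 and AT4G14330 lay in the stretch of numbers divisible by 6. SPPA lay in the run with remainder 5. In both stretches every probe met the rule, named or not. The probe of AT5G02830 also has a number divisible by 6, but between 2310 and 2820. Further genes at 0 throughout, in the order of their identifiers, were AT1G12230, AT1G17850, AT1G24530, AT1G29040, AT1G67800, AT1G68160, AT1G72640, AT1G75260, AT2G11270, AT2G21530, AT2G26340, AT2G27680, AT2G36560 and AT2G45990.

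For 3 of these 41 genes, another probe that names the gene together with others was above 0 in all 12 columns. For AT3G25680 the probe shared by 3 genes had a median of 0.279 in WT and 0.326 in prors1. For AT1G17850, also on a probe shared by 3 genes, the medians were 0.294 and 0.626, and for AT1G24530 they were 0.354 and 0.393. Which of the genes on a shared probe gave its signal cannot be told apart.

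The other 54 genes low in both groups were above 0 in 1 to 5 columns. Their 100 values above 0 had a median of 0.0157, against 0.354 for all values above 0 on the array. A single column was above 0 for 31 genes, in WT for 25 and in prors1 for 6. Over all 446 probes low in both groups these counts were 97 and 22. Over the whole class 33 genes were above 0 in WT alone, 6 in prors1 alone and 15 in both groups. Without WT array 3, 14 of the 95 genes were above 0 in WT alone and 11 in prors1 alone. A single column was then above 0 in WT for 14 and in prors1 for 8. That removal leaves fewer WT columns than prors1 columns, so it lowers the imbalance by construction. With array 3 left out of both groups, 17 were above 0 in WT alone and 2 in prors1 alone, so the imbalance remained. A single column was then above 0 in WT for 16 and in prors1 for 2. Of all 446 probes low in both groups, 137 were above 0 in WT alone and 34 in prors1 alone. The counts were 75 and 58 without WT array 3, and 94 and 29 without array 3 of both groups. For 40 of the 54 genes no array had both of its columns above 0, as must hold for the 31 with a single column. Of the 23 genes with 2 or more columns above 0, 9 had no array that showed the signal in both columns.

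Several of these genes serve plastids. LrgB, the plastid transporter of glycolate and glycerate in photorespiration, was above 0 in 2 WT columns, at 0.0654 and 0.00475, and at 0 in all prors1 columns. CRR41, needed for the plastid NDH complex that carries out cyclic electron flow, reached 0.0156 in WT and 0.00137 in prors1. OTP85, a PPR editing factor, reached 0.0105 in WT and 0.00250 in prors1, and UPP, the plastid uracil phosphoribosyltransferase, 0.0194 and 0.00347. All of these values lay far below the array's median. AT1G49380, which assembles cytochrome c in plastids, AT5G22620, the phosphatase that removes a nocturnal Rubisco inhibitor, and AT3G29185, an assembly factor of plastid ATP synthase, were each above 0 in 1 WT column and in 0 prors1 columns. LrgB, CRR41, UPP, AT1G49380, AT5G22620 and AT3G29185 lay in the stretch of numbers divisible by 6 where every probe met the rule. Of the 10 genes assigned here to plastid metabolism and photosynthesis, 9 were low in both groups, near the 95 of all 110, and 7 had a probe number divisible by 6, against 44 of all 110.

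Regulators were found at the floor as well. DME, the DNA glycosylase that removes methylated cytosine in the central cell of the ovule, was above 0 in 1 WT column at 0.000774. SAP (STERILE APETALA), a regulator of flower development, was above 0 in 1 prors1 column at 0.00418. The probe of SAP lay in the stretch of numbers divisible by 6 where every probe met the rule. ATSIK, a protein kinase, was above 0 in 1 WT column at 0.00334, and AT5G25510, a regulatory subunit of protein phosphatase 2A, in 1 at 0.0163. Of the 11 genes assigned to signalling and gene regulation, 10 were low in both groups, again near the share of all 110, and 5 had a probe number divisible by 6. These role groups were written from background knowledge after the members were known, and 65 genes were assigned to none.

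Some genes low in both groups were above 0 mainly on 1 array of a group. AT2G26110 read 0.145 and 0.0796 in the columns of WT array 2, and 1.08 and 1.16 in those of prors1 array 2, with 0 in the other 8 columns. It held the highest value of the 110 genes. AT5G51670 was above 0 on array 3 of both groups alone, up to 0.483 in WT and 0.184 in prors1. AT1G32220 read 0.125 and 0.0924 on prors1 array 3 and 0.0389 in 1 column of WT array 2. In AT2G26110 and AT5G51670 the signal repeated within an array and was at 0 on the other arrays of the group. The probe of AT5G51670 has a number divisible by 6.

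Array 3 held the most genes above 0 in both groups. Its columns had 28 and 28 of the 110 genes above 0 in WT, and 22 and 23 in prors1, against 6 to 13 in the other WT columns and 10 to 17 in the other prors1 columns. Over all probes the same arrays also had the fewest values at 0, 423 and 440 in WT and 412 and 432 in prors1, against 511 to 519 and 455 to 474. Without WT array 3, and with 3 of the remaining WT columns required, the genes low in WT alone numbered 20 in place of 12. Those at 0 in every remaining column numbered 60 in place of 41. Leaving out WT array 1 or 2 in the same way gave 14 and 13 genes low in WT alone, and 46 and 46 at 0. Fewer columns can only raise or keep the count at 0.

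**Figure D3:**
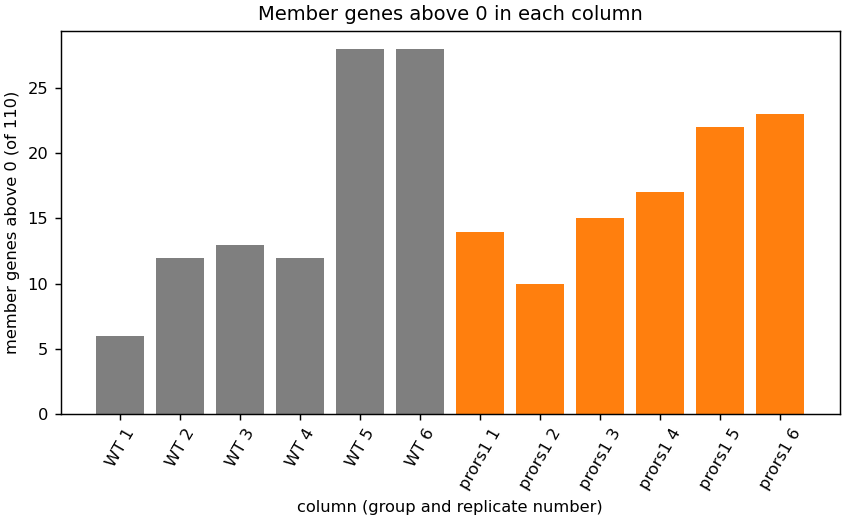
The bars count, of the 110 genes, those above 0 in each column, WT in grey and prors1 in orange. Columns 5 and 6 of each group, which form array 3, stand highest, at 28 and 28 in WT and at 22 and 23 in prors1.

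The 12 genes low in WT alone had prors1 medians of 0.0190 to 0.624. In prors1 their medians lay between percentile 0.502 and percentile 65.8 of all probes with a median above 0, so they ran from the floor to above the middle of the array. None had a probe number divisible by 6 (0 of 12), and all 12 lay outside both stretches. At least 4 prors1 columns and at most 1 WT column were above 0 for 6 of them, 0.867% of the 692 probes naming 1 gene, against 1.05% of all probes. These were AT4G12270, AT4G21770, AT4G31930, AT3G17950, AT2G26100 and AT1G62760.

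AT4G12270, of the copper amine oxidase family of enzymes that oxidise polyamines, was listed at 0 in all 6 WT columns and above 0 in all 6 prors1 columns. Its prors1 values ran from 0.0878 over a median of 0.148 to 0.352, and the array means were 0.0963, 0.231 and 0.219 (0.182 ± 0.0743, SD, n = 3). It was the one gene of the 110 with 0 of 6 columns above 0 in one group and 6 of 6 in the other, but its prors1 level stood at percentile 7.96 of that group.

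AT4G21770, of the pseudouridine synthase family that modifies RNA, was at 0 in all 6 WT columns. In prors1 it was above 0 in 5 columns, with a median of 0.224 and a highest value of 0.667, and array means of 0.106, 0.566 and 0.142. AT4G31930, a mitochondrial glycoprotein family gene, was at 0 in WT, and in prors1 it had array means of 0.114, 0 and 0.0884. AT3G17950 was at 0 in WT and had prors1 array means of 0.0323, 0.0305 and 0.0602. In these 3 genes at least 1 prors1 column was at 0 too, so the groups overlapped.

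Of the other genes low in WT alone, some carry sugar or cell wall family names, which were assigned after the members were known and not compared with the rest of the array. AT4G38040, an exostosin family glycosyltransferase, stayed between 0 and 0.0131 in WT. Its prors1 columns lay between 0.237 and 0.575 with a median of 0.325, without overlap. AT2G26100, a galactosyltransferase, had 1 WT column above 0, at 0.0414, and prors1 array means of 0.0193, 0.394 and 0.210. AT1G62760, a pectin methylesterase inhibitor family gene, reached 0.0234 in 1 WT column and ran from 0.000556 to 0.153 in prors1. The WT column lay above the lowest prors1 column, so the groups overlapped. AT5G25990, of a core-2/I-branching glycosyltransferase family, had array means of 0, 0.0154 and 0.115 in WT and of 0.310, 0.0327 and 0.140 in prors1.

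AT4G03150 had the highest prors1 level of the 12. In WT the columns of array 3 alone were above 0, at 0.0707 and 0.0985. In prors1 it ran from 0.409 over a median of 0.624 to 0.707 (0.584 ± 0.125, SD, n = 3 arrays). AT5G53930 reached at most 0.0344 in WT, with a median of 0.00869, and lay between 0.181 and 0.462 in prors1, with a median of 0.249. In both genes every prors1 column lay above every WT column.

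AT1G72890, of the TIR-NBS family of immune receptors, had array means of 0, 0.0622 and 0.147 in WT and of 0.141, 0.265 and 0.322 in prors1, and its columns overlapped. AT4G20690 was above 0 on WT array 1 alone, up to 0.0656, and ran from 0.0432 to 0.214 in prors1. Of the 12 genes, AT4G03150, AT4G12270, AT4G38040 and AT5G53930 thus had groups without overlap, 4 in all. Groups with prors1 above WT in every column were also found for 34.6% of all probes as deposited. With each column divided by its median above 0 the share of all probes was 11.1% (381 probes), and after quantile normalization 12.8% (440 probes). WT lay above prors1 in every column for 103 probes as deposited. That count was 578 with each column divided by its median above 0, and 457 after quantile normalization. Because the rule chose these genes for WT values at or near 0, their separation is part of how they were chosen and is not set against these shares.

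**Figure D4:**
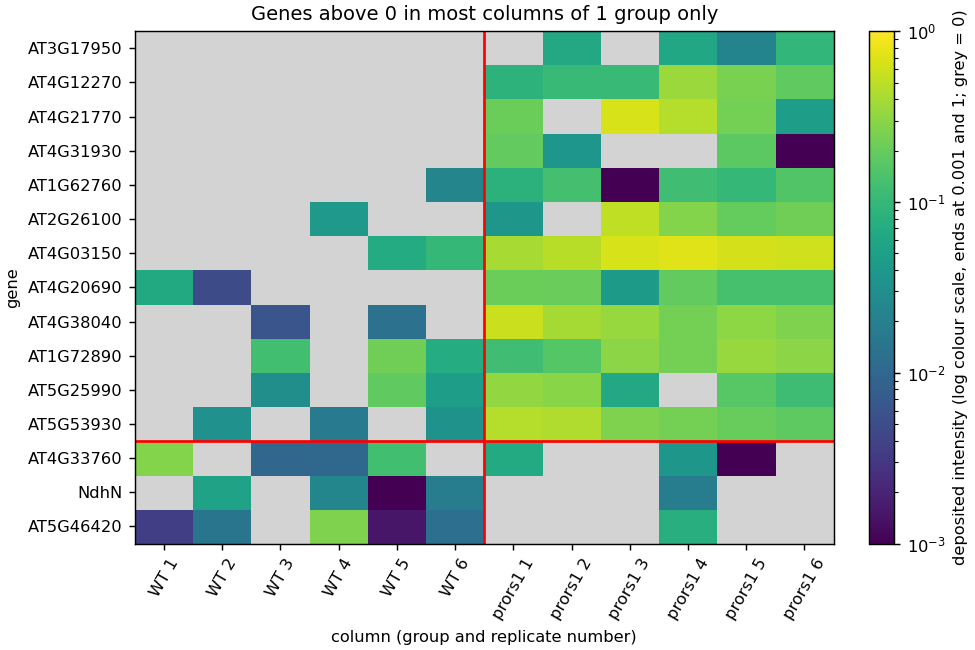
Rows are the 12 genes low in WT alone (above the red line) and the 3 low in prors1 alone (below it), columns are the 6 WT and 6 prors1 columns, and colour gives the deposited intensity on a log scale with 0 in grey. The WT side of the upper rows is mostly grey, while AT4G12270, AT4G03150, AT4G38040 and AT5G53930 are coloured in all 6 prors1 columns.

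The 3 genes low in prors1 alone were faint in WT too, with medians of 0.00812 to 0.0101, and none had groups without overlap. NdhN, a subunit of the plastid NDH complex whose probe number is divisible by 6, had WT array means of 0.0268, 0.0120 and 0.00946, and in prors1 a single column above 0, at 0.0189. AT5G46420, a RimM-type factor for maturing ribosomal RNA, was above 0 in 5 WT columns, up to 0.265, and in 1 prors1 column, at 0.0765. AT4G33760, an organelle aspartyl-tRNA synthetase, which like prolyl-tRNA synthetase charges a transfer RNA, had array means of 0.137, 0.0101 and 0.0626 in WT. In prors1 its array means were 0.0343, 0.0195 and 0.000227. NdhN and AT5G46420 met the stricter limit of at least 4 columns against at most 1. They were 0.289% of the 692 probes naming 1 gene, against 0.233% of all probes. The medians of the 3 genes stood at percentile 0.778 to 1.15 of WT.

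The values on both sides of the limit of 4 columns overlapped in part. Just inside it lay 8 genes with 3 of 6 columns above 0 in a group. The highest medians among these were 0.0363 for AT1G72890, 0.0154 for AT5G25990 and 0.00869 for AT5G53930, each in WT. The other 5 inside, AT4G01810, AT1G66090, AT3G47080, AT4G33760 and AT3G32940, had medians of 0.000111 to 0.00419. Thus 6 of the 8 lay below every gene just outside. With 3 of 6 columns at 0 a middle value is 0, so the limit itself lowers the medians inside. Just outside lay 11 genes with 4 of 6, led by AT5G15280 with 0.188 in prors1, and AT4G31210 and AT3G11150 with 0.142 and 0.126 in WT. The lowest of the 11, GH9B8, picked after its value was seen, had a WT median of 0.0142, below that of 2 genes inside.

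Among the 110 genes, AT2G26100 and AT2G26110 follow each other in the gene table with 0 genes between them. Their probe numbers lay 12 apart, and both had their highest values on prors1 array 2. AT5G02830 and AT5G02850, with 2 genes between them, were both at 0 in all 12 columns, and their probes lay 2295 numbers apart.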

How the data were processed

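Values were the authors' deposited intensities, 1 column for each of 12 samples (6 WT, 6 prors1), linear, from 0 to 100. How the arrays were scanned, background-corrected and scaled is not given in the sources used here, and 0 columns were left unmatched. Probes were named through the platform annotation of 2016 and the TAIR10.1 gene table, in which all 110 genes matched. The probes' genome build is not named, so no coordinates are given. No probe or protein sequence was used here.

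Columns 1 and 2, 3 and 4, and 5 and 6 correlated at 0.902 to 0.961 on the log2 scale within a group, other pairs at 0.840 to 0.895, so each pair was taken as 1 array. This describes the columns across probes, which are not independent replicates. Column totals ran from 2312 to 3456 intensity units. The number of arrays limits precision. No normalization was applied to reported levels, and array means include values of 0.

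The members and lists were chosen with earlier results of these data known. The rule used the contrast of WT with prors1, so no test was run. On simulated data made for the WT and prors1 comparison, 200 of 200 probes set to be low among 3439 were assigned as made. The same limit set and assigned them, so this outcome was fixed in advance and checks the code alone. Genes were named by a rule: those strictly one-sided, the first 20 at 0 throughout by identifier, the 5 brightest, the 5 one-sided with the largest median, and those at the limit. Others were named for their known role after their values were seen. The gene table has no descriptions, so the planned annotation groups held at most 1 of the genes, and 0 of the planned tissue markers had a probe of their own. Roles without a symbol in that table are background knowledge. Python 3.11.15, pandas 2.3.3 and numpy 2.4.6 were used.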

Additional observations from a re-analysis of the deposited data

How the results depend on the processing

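The counts were 110 genes, 95 low in both groups, 12 in WT alone, 3 in prors1 alone, 8 strictly one-sided and 41 at 0 throughout. Alternatives on probe number were added after the data were seen. Without probe numbers divisible by 6 there were 66 genes, 52 low in both and 23 at 0 throughout. Without both stretches there were 64, 49 and 22. The genes low in prors1 alone numbered 5 with 3 columns counted as detection, 1 and 11 with a floor at percentile 1 and 5 of each column, and 7 with arrays as units of which 1 column sufficed. The strictly one-sided genes numbered 5 with 5 columns required. Genes at 0 throughout numbered 82 with the floor at percentile 5 and 81 with arrays of which both columns had to be above 0, both stricter by construction. When 1 column or array was left out, detection required 3 of the remaining columns of that group. This gave 2 to 6 genes low in prors1 alone. There were 6 without WT column 1, WT column 3 or prors1 array 1, and 5 without prors1 array 3. Genes low in WT alone numbered 9 to 20, with 20 without WT array 3. Leaving out 1 column or array gave 107 to 118 genes in all, 92 to 97 low in both, 6 to 11 strictly one-sided and 41 to 60 at 0 throughout. Causes beyond construction were not tested. No paired analysis was possible because the results come from no test. Outliers were not looked for, since each group holds 3 arrays. Values near the floor limit every count here.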

Other observations

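The repeat of low probes with the probe number held over the whole array, named or not. Of the probes 6 numbers after a low probe, 48.2% were low as well, and at distances of 12, 18 and 24 the shares were 47.5%, 43.5% and 43.5%. At a distance of 1 the share was 26.4%, at 13 it was 20.4%, and at 5 and 7 it was 13.9% and 19.1%, against 15.4% of all probes. The level of the probes also differed by remainder. The median over probes of the median intensity across the 12 columns was 0.411 at remainder 1, 0.397 at 2, 0.314 at 3, 0.278 at 4 and 0.264 at 5, and 0 at remainder 0. Numbers divisible by 6 were also the ones most often missing from the table, 506 of them, against 110 to 175 at each of the other remainders. Of the probes naming several genes 14.7% met the rule, and of those naming none 15.6%, close to the 15.9% of probes naming 1 gene.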
